A study of Homo sapiens with 4 samples.

Results

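Proteasome subunit genes were examined in K562, a long-established line of human leukaemia cells with erythroid features, after clofarabine treatment. The members were every gene of the deposited table whose symbol is PSMA, PSMB, PSMC or PSMD followed by a number, 39 of 23615 genes. RNA-seq libraries were analysed for 2 samples treated for 3 h with 5 µM clofarabine, a purine nucleoside analogue used against leukaemia, in medium that held 0.005% DMSO, and for 2 samples treated for 3 h with DMSO, its solvent. Both groups are the same unmodified line, grown in RPMI with serum. No label states that the samples are separate cultures. The p-values therefore rest on the spread between these libraries alone, and that spread may be technical.

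The table names its conditions C and V, and no label spells these letters out. C was taken to be clofarabine and V vehicle, and with the letters exchanged all directions would turn round. The libraries are called C0 and C1 (clofarabine) and V0 and V1 (DMSO), because the table numbers them otherwise than the labels do. They held 13175630 (C0), 23888755 (C1), 8370550 (V0) and 11119379 (V1) fragments assigned to genes. All 9 erythroid markers fixed for K562 were tested, with GATA1 lower in clofarabine libraries by 0.25 on the log2 scale (edgeR, Benjamini-Hochberg adjusted p = 0.0445) and the other 8 not called. Of the 9, 0 had a positive log2 fold change, where 50.6% of all genes tested did, and their median was -0.038. Of 11 markers of T, B, monocytic and NK cells, 2 had enough fragments to test and neither was called. The summed level of all 11 was 34.9 and 40.6 FPKM in clofarabine libraries and 37.5 and 33.5 FPKM in DMSO libraries. Most of it came from the T cell marker CD3D, at 30.0 and 35.3 FPKM in clofarabine libraries and 31.7 and 29.2 FPKM in DMSO libraries. The other tested marker, the monocytic LYZ, had 4.3 and 4.3 FPKM in clofarabine libraries and 5.2 and 3.6 FPKM in DMSO libraries. CD2, KLRD1 and MS4A1 were at 0 in every library. C1 stood apart from C0 on short transcripts, with values given below beside the results they touch.

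The proteasome is the main protease of the nucleus and cytosol and degrades proteins marked with ubiquitin. Its 20S core is a stack of rings in which alpha subunits form the outer gate and beta subunits the inner chamber, where PSMB5, PSMB6 and PSMB7 carry the active sites. Interferon-induced relatives can take the places of these catalytic subunits to give the immunoproteasome, which favours peptides suited to presentation on MHC class I. The 19S cap binds ubiquitin chains, removes them, unfolds the substrate with a ring of ATPases and feeds it into the core. Proliferating leukaemia cells depend on this machinery, and proteasome inhibitors such as bortezomib target PSMB5.

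Most proteasome genes were expressed at a steady, high level in all 4 libraries. Of the 39 members, 35 had enough fragments to be tested, and these spanned 31.9 to 789.6 FPKM (the authors' fragments per kilobase scaled to library size, which allows levels to be compared between genes). Members together took 1.02% of fragments in C0 and 1.05% in C1, against 1.01% in V0 and 1.00% in V1. The highest level was that of PSMB1, a structural beta subunit, at 726 and 789.6 FPKM in clofarabine libraries and 669 and 689.9 FPKM in DMSO libraries. PSMB2, another structural beta subunit, had the lowest level of the constitutive core, at 73.6 and 72.4 FPKM in clofarabine libraries and 75.5 and 79.1 FPKM in DMSO libraries. That place rests on the transcript length implied by FPKM, by which PSMB2 ranked at 78.0% of the tested genes. In fragments, PSMB2 had 4496 in C0 and 2875 in V0, above the 1983 and 1278 of PSMB6. Core subunits are built into the particle in equal number, while their messages differed in FPKM beyond the spread between libraries. In bulk samples, fewer cells of a type and less RNA per cell cannot be told apart.

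**Figure D1:**
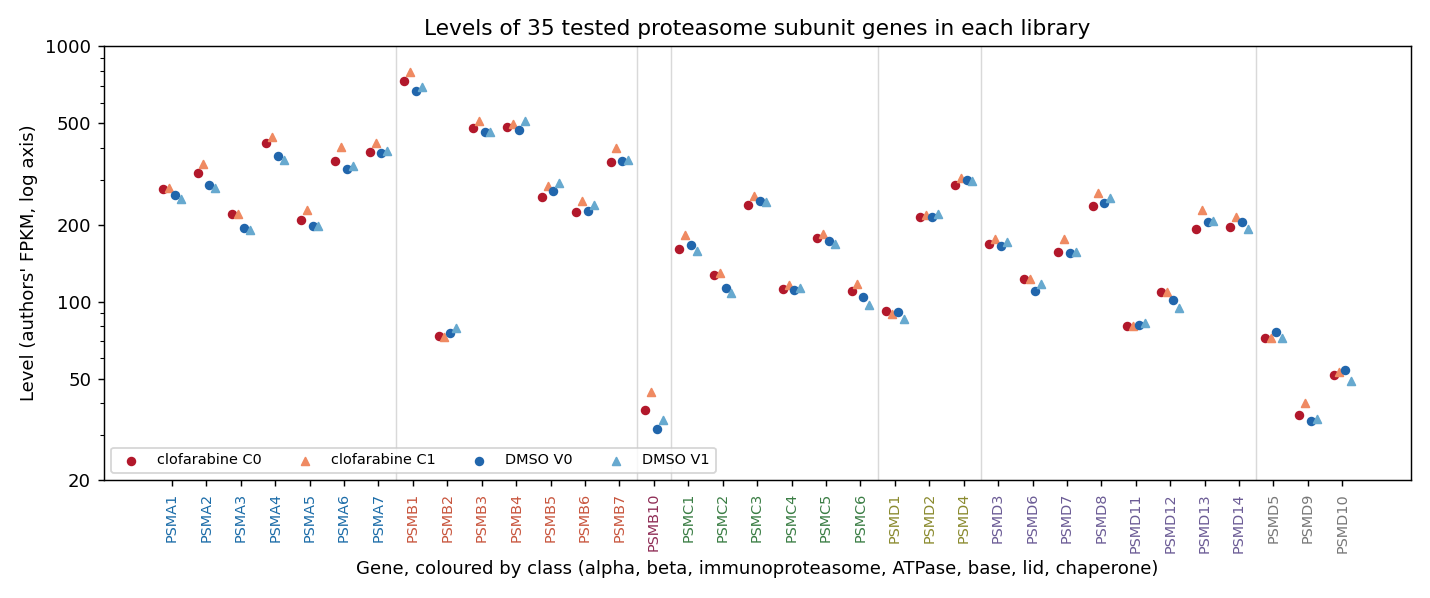
Level of each tested member in each library, as the authors' FPKM on a log axis, grouped by class of subunit (gene names coloured by class, left to right alpha, beta, immunoproteasome, ATPase, base scaffold, lid and assembly chaperone). Red marks are the clofarabine libraries and blue marks the DMSO libraries. PSMB1 lies highest, and PSMB10 and PSMD9 lie lowest at 31.9 to 44.4 FPKM.

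Differences between clofarabine and DMSO libraries were small across the proteasome genes, and the 20S alpha subunits had the largest median among the classes with more than 1 tested gene. Called genes are those with a Benjamini-Hochberg adjusted p under 0.05 in edgeR's quasi-likelihood test over all 11761 genes tested. Of 35 tested members, 1 was called higher in clofarabine libraries, PSMA4, and 0 were called lower, where 1.54% of all genes tested were called higher and 1.03% lower (2.57% in either direction). At an unadjusted p under 0.05, 10 members were higher and 0 lower, where all genes gave 8.17% higher and 6.06% lower. Among short genes the share was larger. In the shortest of 10 length classes (described below), with 11 members, 23.0% of all genes were higher at that p. In the next class, with 10 members, 10.7% were. A positive log2 fold change was given by 29 of 35 members, against 50.6% of all genes. The median log2 fold change of the members was 0.078, against 0.0020 over all genes, and single members lay between -0.034 and 0.32. Without C1 the median was 0.0023 and 18 of 35 were positive, and with library size only 0.041 and 22 of 35. Without C0, 32 of 35 were positive. The number called also moved with the library left out. The share of all genes called in those fits is not given here. No 95% interval of a tested member reached beyond -0.17 or 0.56.

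**Figure D2:**
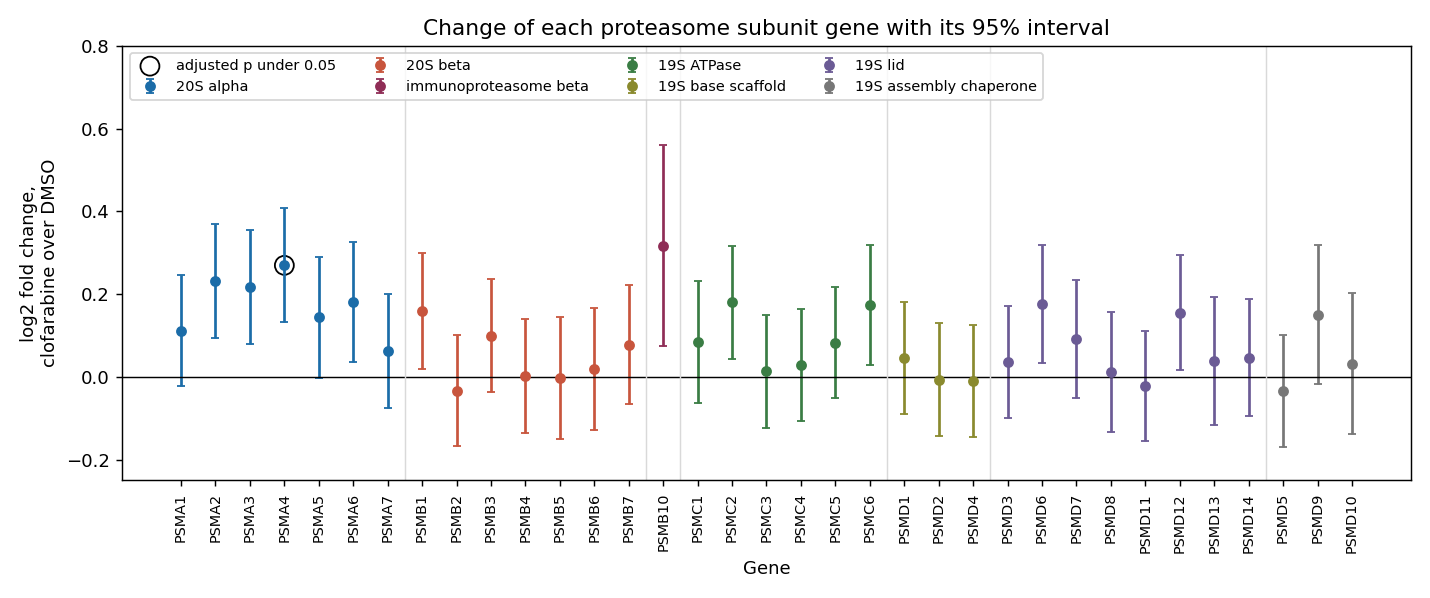
Log2 fold change of each tested member, clofarabine over DMSO, with its 95% interval from edgeR, grouped and coloured by class. The circled gene, PSMA4, is the only member with an adjusted p under 0.05. All 7 alpha subunits lie above 0, while the constitutive beta subunits lie between -0.034 and 0.16.

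The 20S alpha subunits form the outer rings of the core and hold the gate through which substrates enter. All 7 tested alpha genes had positive log2 fold changes, with a median of 0.18 and a range of 0.063 to 0.27. PSMA4, which encodes an alpha ring subunit, had 423 and 451 CPM (counts scaled to library size by TMM) in clofarabine libraries, against 372 and 354 CPM in DMSO libraries. Both clofarabine libraries lay above both DMSO libraries. The means were 437 ± 19.5 CPM in clofarabine libraries and 363 ± 12.8 CPM in DMSO libraries (SD, n = 2 each). PSMA4 rose by 0.27 on the log2 scale (SE 0.066, 95% interval 0.13 to 0.41, edgeR adjusted p = 0.0298). This call was lost without V0 (adjusted p = 0.128), without V1 (0.552) and with limma on log2(FPKM + 1) (0.255), and over all alternatives the adjusted p ran between 8.4e-05 and 0.552. In the GENCODE v29 annotation PSMA4 has no named pseudogene and no exon overlap on the other strand.

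PSMA2, another alpha ring subunit, came next, at 412 and 447 CPM in clofarabine libraries and 369.9 and 363 CPM in DMSO libraries. Its log2 fold change of 0.23 did not pass the threshold (adjusted p = 0.0724), though it did with the trend on transcript length removed and with thinning to equal depth. PSMA2 has 3 named pseudogenes and shares exon sequence with MRPL32 on the other strand, and no source used here gives the strand setting of the counting, so its fragments are uncertain in origin. PSMA3, a subunit whose tail is a docking site for several unstructured proteins, had 180.4 and 181 CPM in clofarabine libraries and 159 and 152 CPM in DMSO libraries. The groups did not overlap, and the log2 fold change was 0.22 (adjusted p = 0.0949). PSMA3 has 1 named pseudogene. Of the tested members, 11 have a named pseudogene, PSMA6 among them. An exon overlap on the other strand was found for 10, among them PSMD1, PSMD9, PSMD11 and PSMD14.

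PSMA7, the alpha subunit of lowest log2 fold change, had 329 and 357 CPM in clofarabine libraries and 325 and 332 CPM in DMSO libraries. The groups overlapped, and the log2 fold change was 0.063 (adjusted p = 0.751). The remaining alpha genes, PSMA1, PSMA5 and PSMA6, had log2 fold changes of 0.11, 0.14 and 0.18, with adjusted p between 0.216 and 0.471. Their clofarabine libraries lay above their DMSO libraries in each case. In all, 6 of 7 alpha genes had no overlap in the higher direction, where 22% of all genes tested did. PSMA8, the testis-specific alpha subunit, had 0 fragments in every library, and a floor of 3 fragments allows up to 0.226 CPM in C0, 0.13 CPM in C1, 0.353 CPM in V0 and 0.267 CPM in V1 (counting error only).

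The upstream sequences of PSMA4 and PSMA2, the alpha genes of largest change, and of PSMB4, a beta gene whose log2 fold change was 0.0020, are shown as examples of the motifs counted below, from core genes with high and near-0 log2 fold changes. Each is the 250 bases before the gene's start in RefSeq (GRCh38.p14), 5′ to 3′ on the gene's own strand, which is plus at chr15:78540155-78540404 for PSMA4, minus at chr7:42932175-42932424 for PSMA2 and plus at chr1:151399323-151399572 for PSMB4. Capitals mark matches to the ETS core CGGAAG, read on the other strand as CTTCCG, in PSMA4 and PSMB4, where PSMB4 holds 2 matches end to end, and to the CCAAT box, read on the other strand as ATTGG, in PSMA2.
PSMA4: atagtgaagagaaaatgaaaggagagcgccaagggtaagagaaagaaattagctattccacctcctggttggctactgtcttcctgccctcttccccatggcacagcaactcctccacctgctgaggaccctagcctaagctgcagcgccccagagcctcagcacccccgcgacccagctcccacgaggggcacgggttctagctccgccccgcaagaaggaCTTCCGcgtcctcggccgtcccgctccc
PSMA2: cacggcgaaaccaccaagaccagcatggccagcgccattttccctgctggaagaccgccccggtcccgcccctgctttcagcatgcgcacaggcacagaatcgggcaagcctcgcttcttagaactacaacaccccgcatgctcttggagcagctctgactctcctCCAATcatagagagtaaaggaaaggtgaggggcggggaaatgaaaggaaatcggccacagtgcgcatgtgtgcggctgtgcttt
PSMB4: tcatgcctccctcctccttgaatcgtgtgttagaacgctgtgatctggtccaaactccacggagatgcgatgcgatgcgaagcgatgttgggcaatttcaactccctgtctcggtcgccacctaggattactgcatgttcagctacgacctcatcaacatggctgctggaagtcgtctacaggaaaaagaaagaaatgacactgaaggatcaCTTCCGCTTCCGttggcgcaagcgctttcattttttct
Sequences were at hand for 34 of the 39 members, all but PSMA7, PSMB1, PSMB6, PSMB7 and PSMD4. The ETS core, on either strand and whether or not it overlapped another motif, was found in 18 of 34 members (52.9%), against 16.7% of the 27305 genes of the RefSeq table with the same window. The CCAAT box was found in 16 of 34 members (47.1%), against 33% of all genes. The core of the antioxidant response element, TGACNNNGC or GCNNNGTCA, which NFE2L1 and NFE2L2 bind, was found in 6 of 34 members (17.6%), against 11.1% of all genes. Among the 6 tested alpha genes with a sequence, which leaves out the untested PSMA8, the ETS core was found in 3 of 6, the CCAAT box in 3 of 6 and the antioxidant core in 0 of 6. Among constitutive beta genes these counts were 2 of 4, 2 of 4 and 1 of 4. The RefSeq genes were not limited to genes expressed in these cells, as most members are, so these shares compare unlike sets. A match is only a run of letters in this window and was not tested for binding.

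The constitutive beta subunits, which line the chamber of the core, moved less. Their median log2 fold change was 0.019 (-0.018 with library size only and -0.012 with the length trend removed). With a library left out it ran between -0.025 (without C1) and 0.093 (without C0). Of the 7 genes, 5 were positive and 0 were called, where 50.6% of all genes tested were positive and 2.57% called. PSMB5, which carries the chymotrypsin-like site, had 233 and 268 CPM in clofarabine libraries and 248 and 255 CPM in DMSO libraries. The DMSO libraries fell between the clofarabine libraries, and the log2 fold change was -0.0021 (95% interval -0.15 to 0.15, edgeR adjusted p = 0.995). PSMB6, which carries the caspase-like site, had 149 and 165 CPM in clofarabine libraries and 150.5 and 159.95 CPM in DMSO libraries, with overlap between groups (log2 fold change 0.019, adjusted p = 0.946). PSMB7, which carries the trypsin-like site, had 294 and 333 CPM in clofarabine libraries and 296 and 299 CPM in DMSO libraries (log2 fold change 0.078, adjusted p = 0.691). For none of the 3 catalytic genes was a difference beyond the spread between libraries found.

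Among the structural beta genes, PSMB1 had the largest change, with 533 and 581 CPM in clofarabine libraries and 490.1 and 508 CPM in DMSO libraries. Its groups did not overlap, and its log2 fold change of 0.16 did not pass the threshold (adjusted p = 0.282). PSMB2 had the lowest value, at 339 and 337 CPM in clofarabine libraries and 339 and 353 CPM in DMSO libraries (log2 fold change -0.034, adjusted p = 0.884). PSMB3 and PSMB4 had log2 fold changes of 0.10 and 0.0020. Of the 7 beta genes, only PSMB1 and PSMB3 had no overlap between the groups, both in the higher direction. Over all genes tested, 22% had no overlap in that direction, a share near that of the beta genes.

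Immunoproteasome genes were scarce in these cells, and PSMB10 was the only one with enough fragments to test. PSMB8, the counterpart of PSMB5, had 1 and 2 fragments in clofarabine libraries and 1 and 0 fragments in DMSO libraries, all under the floor of 3 fragments. PSMB9, the counterpart of PSMB6, had 6 and 19 fragments in clofarabine libraries and 7 and 2 fragments in DMSO libraries. PSMB11, the thymus-specific counterpart, had 0 fragments in every library, with the same floors as PSMA8. In GENCODE v29 exons of PSMB8 and PSMB9 overlap on opposite strands, so fragments this few cannot be assigned to either with certainty.

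PSMB10, the counterpart of PSMB7, had 31.1 and 36.7 CPM in clofarabine libraries, against 26.3 and 28.4 CPM in DMSO libraries. Both clofarabine libraries lay above both DMSO libraries, with means of 33.9 ± 3.93 CPM in clofarabine libraries and 27.3 ± 1.49 CPM in DMSO libraries (SD, n = 2 each). Its log2 fold change of 0.32 was the largest of any tested member (SE 0.117, 95% interval 0.074 to 0.56) and did not pass the threshold (edgeR adjusted p = 0.190, unadjusted p = 0.0128). It was 0.18 without C1, and 0.42 without C0, where it passed (adjusted p = 0.0314).

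Per length, PSMB10 made up 9.67% and 10.0% of the summed FPKM of PSMB10 and PSMB7 in clofarabine libraries, and 8.23% and 8.75% in DMSO libraries. The means were 9.84% ± 0.245 in clofarabine libraries and 8.49% ± 0.369 in DMSO libraries (SD, n = 2 each). The smallest p that an exact permutation test of 2 samples against 2 can give is 0.333, so this share was not tested. PSMB9 made up 0.232% and 0.382% of PSMB9 and PSMB6 in clofarabine libraries, and 0.419% and 0.0857% in DMSO libraries. PSMB8 made up 0.0313% and 0.0325% of PSMB8 and PSMB5 in clofarabine libraries, and 0.0463% and 0% in DMSO libraries. The constitutive form thus held most of the message of each pair in every library, and for the PSMB8 and PSMB9 pairs the groups overlapped.

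Among the 20 genes of the 19S cap with PSMC or PSMD names, which include 3 assembly chaperones, no gene was called. Over all genes tested, 2.57% were called. The lid subunit SHFM1 carries no PSM name, was called higher and is given below with the other pathway genes. The median log2 fold change of the 20 was 0.043, and 16 values were positive, against 50.6% of all genes. The 6 ATPases, which form the unfolding ring at the base of the cap, were all positive, with a median of 0.083 (0.028 without C1 and 0.14 without C0). PSMC2, an ATPase of this ring, had 323 and 344 CPM in clofarabine libraries and 299 and 289 CPM in DMSO libraries. The groups did not overlap, and the log2 fold change of 0.18 did not pass the threshold (adjusted p = 0.184). PSMC3, the ATPase of lowest log2 fold change, had 339 and 367 CPM in clofarabine libraries and 351 and 349 CPM in DMSO libraries (log2 fold change 0.013, adjusted p = 0.963).

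The 3 scaffold and ubiquitin receptor genes of the base had a median log2 fold change of -0.0065 (0.028 without C0 and -0.042 with library size only), with overlap between groups for all 3. PSMD1, a large scaffold subunit, had 295 and 287 CPM in clofarabine libraries and 289.5 and 274 CPM in DMSO libraries (log2 fold change 0.047, adjusted p = 0.826). PSMD4, a receptor for ubiquitin chains, had 331 and 353 CPM in clofarabine libraries and 345 and 344 CPM in DMSO libraries (log2 fold change -0.0093, adjusted p = 0.976).

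The lid removes ubiquitin chains before the substrate enters. Its 8 genes with PSMD names, so without SHFM1, had a median log2 fold change of 0.043, which was -0.016 without C1 and 0.14 without C0. PSMD14, the metalloprotease that cuts the chains off, had 304 and 335 CPM in clofarabine libraries and 319 and 301 CPM in DMSO libraries. The groups overlapped, and the log2 fold change was 0.047 (adjusted p = 0.835). PSMD6, a structural lid subunit, had the largest change of the lid, at 148 and 153 CPM in clofarabine libraries and 130.2 and 136 CPM in DMSO libraries. The difference was 0.18 on the log2 scale (adjusted p = 0.226), and its exons overlap the antisense genes PSMD6-AS1 and PSMD6-AS2. PSMD11, another structural lid subunit, was the only member of all whose clofarabine libraries both lay below its DMSO libraries, at 306 and 307 CPM in clofarabine libraries and 308 and 315 CPM in DMSO libraries. That difference was -0.023 on the log2 scale (adjusted p = 0.926), and 21.3% of all genes showed no overlap in the lower direction.

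The assembly chaperones PSMD5, PSMD9 and PSMD10 bind the ATPases while the base is built and leave the finished particle. PSMD9 had 79.5 and 88.7 CPM in clofarabine libraries and 74.9 and 77.1 CPM in DMSO libraries (log2 fold change 0.15, adjusted p = 0.429). PSMD5 had 243 and 242 CPM in clofarabine libraries and 254 and 242 CPM in DMSO libraries (log2 fold change -0.034, adjusted p = 0.881). For PSMD10 the groups overlapped, with a log2 fold change of 0.032.

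Set side by side, alpha genes stood higher against beta and 19S genes in clofarabine libraries than in DMSO libraries. The mean log2 CPM of the 7 alpha genes exceeded that of the 7 constitutive beta genes by 0.28 in C0 and 0.27 in C1, against 0.18 in V0 and 0.11 in V1. The difference between the groups was 0.13, and both clofarabine libraries lay above both DMSO libraries. Against the 20 members of the 19S cap, the alpha mean was higher by 0.60 in C0 and 0.60 in C1, and by 0.49 in V0 and 0.49 in V1. The beta mean exceeded the 19S mean by 0.31 in C0 and 0.34 in C1, and by 0.31 in V0 and 0.38 in V1, where the groups overlapped. These class means are descriptions of genes chosen with earlier results known, and no test was run on them.

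Per length, alpha genes summed to 2181 and 2331 FPKM in clofarabine libraries and 2023 and 2004 FPKM in DMSO libraries. Beta genes summed to 2593 and 2795 FPKM in clofarabine libraries and 2529.5 and 2623 FPKM in DMSO libraries. The 19S genes summed to 2940.2 and 3137 FPKM in clofarabine libraries and 2951.5 and 2923 FPKM in DMSO libraries. On this scale the groups were apart for alpha genes and overlapped for beta and 19S genes.

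**Figure D3:**
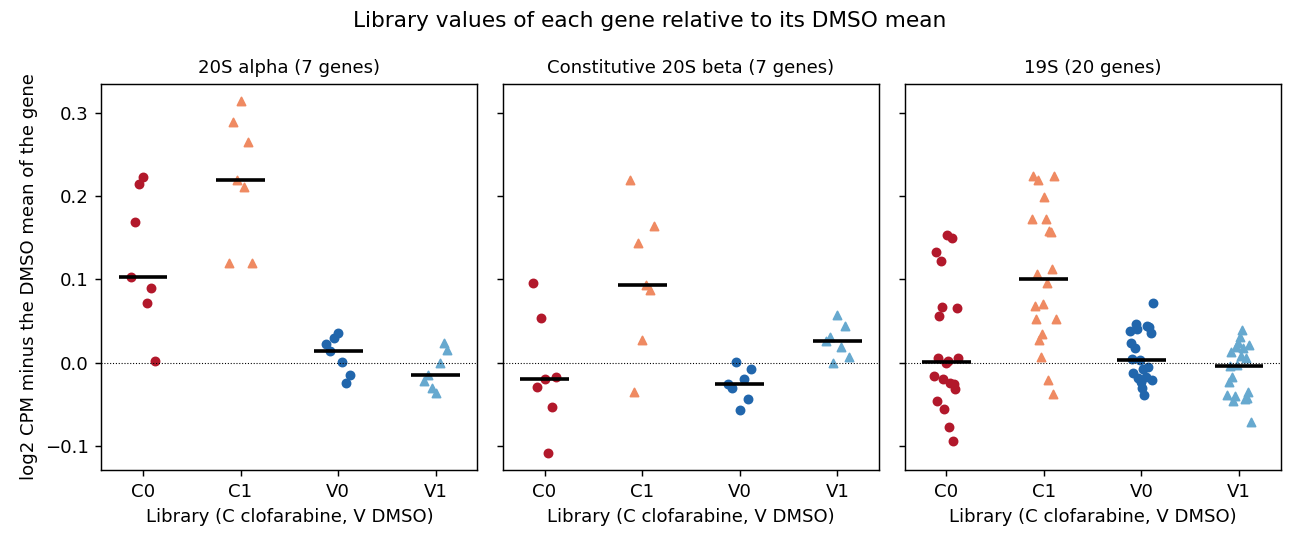
Log2 CPM of each gene minus its own DMSO mean, in each library, for alpha, constitutive beta and 19S genes, with points for genes and bars for the median. The alpha medians are 0.10 in C0 and 0.22 in C1, against 0.014 in V0 and -0.014 in V1. For beta genes the medians of C0 and C1 are -0.020 and 0.093, and for 19S genes 0.00054 and 0.10, so C1 lies above C0 in each panel.

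Transcript length moved with these values. Length was read from the ratio of scaled fragments to FPKM, and all tested genes were put into 10 classes of equal size by it. Proteasome genes are short, with 11 of 35 in the shortest class, among them 4 alpha genes, 6 beta genes and PSMB10. In that class, all 1177 genes had a median log2 fold change of 0.090, 6.63% were called higher and 36.1% had no overlap in the higher direction. The median of C1 minus C0 was 0.14 there, and -0.089 in the longest class.

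Within the shortest class the alpha genes PSMA3, PSMA4, PSMA6 and PSMA7 had a median of 0.20 and a range of 0.063 to 0.27. The 6 beta genes there had a median of 0.049 and a range of -0.0021 to 0.16. With a smooth trend on length removed from each library, the alpha median was 0.16 and the beta median -0.012. The alpha minus beta difference, taken between class means and not medians, was 0.15. PSMA2 and PSMA4 were then called, and 25 of 35 members were positive. The share of all genes called or positive in that fit is not given here. Without C1 the alpha median was 0.10 and that of beta -0.025, with PSMA7 at -0.0017 and the other 6 alpha genes positive. The alpha minus beta difference of class means was 0.14 without C1. The part that length, or RNA quality, plays in the alpha values was not tested further.

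**Figure D4:**
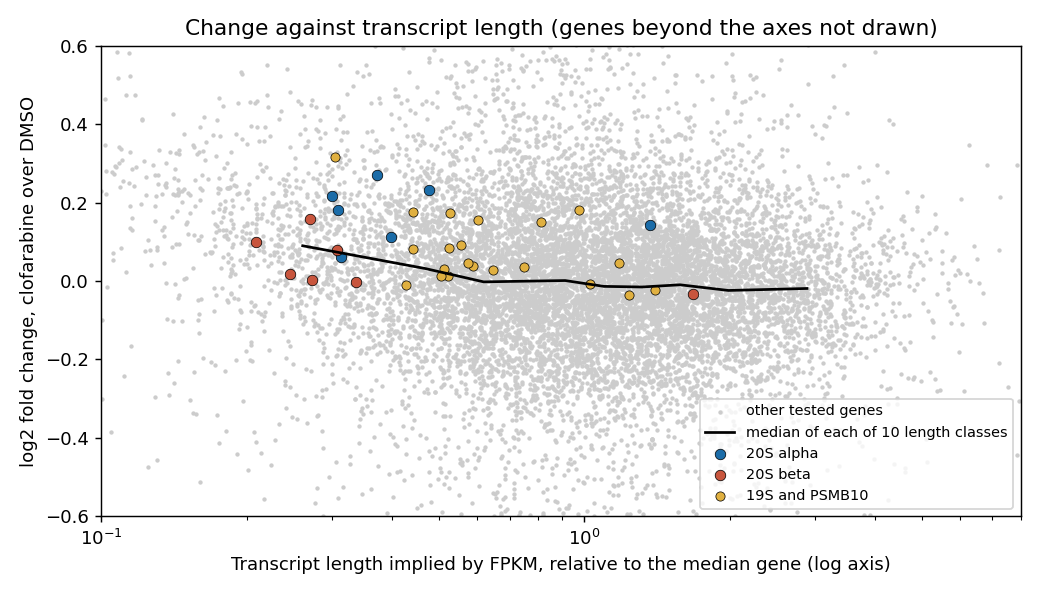
Log2 fold change, clofarabine over DMSO, against the transcript length implied by FPKM relative to the median gene (log axis), with alpha genes in blue, constitutive beta genes in red, and 19S genes and PSMB10 in yellow. Grey points are the other tested genes, of which those beyond the axes are not drawn (526 genes), and the line joins the medians of 10 length classes. The line starts at 0.090 for the shortest genes, and 6 of 7 alpha genes lie above it at their length, while PSMA7 at 0.063 does not.

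Genes that work with the proteasome were taken from 8 textbook lists, which held 51 genes besides the members, of which 47 were tested. Of these, 2 were called higher in clofarabine libraries and 0 lower, beside 1.54% and 1.03% of all genes tested. Positive values were given by 34 of 47, beside 50.6% of all genes, and the median log2 fold change was 0.053. SHFM1 (SEM1), a small 19S lid subunit that carries no PSM name, had 94.7 and 123 CPM in clofarabine libraries and 88.3 and 69.8 CPM in DMSO libraries. It rose by 0.48 on the log2 scale (SE 0.107, edgeR adjusted p = 0.0167), a call lost without C1 (log2 fold change 0.27, adjusted p = 0.105), without V1 (0.30, 0.302), in DESeq2 (0.46, 0.639) and with limma on log2(FPKM + 1) (0.45, 0.271), within adjusted p from 3.3e-11 to 0.639 over all alternatives. RPS27A, which encodes ubiquitin fused to a ribosomal protein, had 1373 and 1605 CPM in clofarabine libraries and 1229 and 1120.5 CPM in DMSO libraries. It rose by 0.34 (SE 0.081, edgeR adjusted p = 0.0229), a call lost without V0 (adjusted p = 0.0504), without V1 (0.485) and with limma on log2(FPKM + 1) (0.332), within 1.2e-11 to 0.485 over all alternatives. SHFM1 and RPS27A both lie in the shortest length class, where 6.63% of all genes were called higher.

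In the other lists no gene was called. POMP, the chaperone that drives the assembly of the beta ring, had the smallest p of the 6 assembly chaperones, with 192 and 206 CPM in clofarabine libraries and 179 and 159 CPM in DMSO libraries (log2 fold change 0.24, edgeR adjusted p = 0.0825). Of 5 activators and inhibitors, PSME3, the nuclear activator PA28 gamma, had 387 and 401 CPM in clofarabine libraries and 426 and 444 CPM in DMSO libraries (log2 fold change -0.14, adjusted p = 0.314). Of 7 transcription regulators, NFE2L2, the oxidative stress factor NRF2, had 93.8 and 83.8 CPM in clofarabine libraries and 73.4 and 80.6 CPM in DMSO libraries (log2 fold change 0.20, adjusted p = 0.268). All 7 regulators were positive, with a median of 0.073, and NFE2L1, which restores proteasome gene transcription when the proteasome is inhibited, gave 0.031.

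Of 12 deubiquitinases and shuttles, 9 were positive, and ZFAND2A, a stress-induced zinc finger protein that binds the proteasome, had 22.0 and 23.4 CPM in clofarabine libraries and 17.8 and 17.04 CPM in DMSO libraries (log2 fold change 0.39, edgeR adjusted p = 0.145). Of 4 genes of the p97 complex, which extracts ubiquitinated proteins, 1 was positive, UFD1L, with 475 and 479.6 CPM in clofarabine libraries and 451 and 454 CPM in DMSO libraries (log2 fold change 0.076, adjusted p = 0.673). The median of that list was -0.021.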

How the data were processed

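Per the file headers, the deposited table gives for each gene and library an estimated count of fragments, the same count as a scaled signal (1 factor in each library), and FPKM as computed by the authors. Tools named in the submitters' processing notes are cutadapt 1.5, TopHat2 2.0.13 and Cuffdiff 2.2.1, with build hg19. Annotation and strand setting: not given in the sources used here. Libraries were prepared from total RNA with a directional kit, per the labels' protocols. The table holds 1 further per-sample column, which was not used.

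Rounding the estimated counts to integers changed 384 to 451 genes per library (tolerance 1e-06). The libraries of a group differed by more than sampling noise (chi-square per degree of freedom 6.55 between clofarabine libraries, 2.73 between DMSO libraries), so none were combined. Genes passing edgeR's filterByExpr (minimum count 10) were scaled by TMM (factors 0.968 to 1.02) and compared with edgeR 4.0.16 in R 4.3.3 by the quasi-likelihood test, group being the sole term, at an adjusted p of 0.05. The common biological coefficient of variation was 6.01%. The steps were tested on simulated data. Standard errors are the log2 fold change over the square root of F. Pseudogenes and overlaps came from GENCODE v29 and upstream sequences from RefSeq, both on GRCh38, so no coordinate is joined to the hg19 counts.

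Named with values are each called member, PSMB5 to PSMB10, PSMD14, PSMD4, PSMA3, the highest and lowest log2 fold change of each class, and from each other list every called gene or that of smallest p; PSMA2, PSMB3, PSMB4 and others named beside them were chosen after their values were seen. The members and lists were chosen with earlier results of these data known. Alternatives were DESeq2 1.42.0 and its size factors, library size only, no filter, limma 3.58.1 (voom, and log2 FPKM plus 1 or 0.1), each library left out, a replicate block, removal of a loess length trend (span 0.3), thinning to equal depth, and thresholds of 0.01 and 0.1. The alpha minus beta difference was added after seeing the data. With 1 library left out, the lone library is assumed to vary like the other group. Some genes of the antigen processing list are not reported here.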

Additional observations from a re-analysis of the deposited data

How the results depend on the processing

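The count of members called higher, 1 as reported, was 1 with DESeq2, with its size factors, with library size only and with limma-voom. It was 2 with no filter, with the length trend removed and with thinning to equal depth (PSMA2 and PSMA4 each time), 0 with log2(FPKM + 1) and log2(FPKM + 0.1), and 0 and 3 at thresholds of 0.01 and 0.1. Leaving out 1 library gave between 0 (without V0 or V1) and 7 (without C0). The count of other pathway genes called higher, 2 as reported, was 1 with DESeq2, 0 on both FPKM scales, 4 with the length trend removed, 0 at 0.01, and between 0 and 5 with a library left out. No member and no other pathway gene was called lower in any of these. No result with a call changed sign. The share of all genes called in each alternative setting is not given here, so these counts are not read as results about the members.

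Over the libraries left out, the median log2 fold change of all members ran between 0.0023 and 0.12, of alpha genes between 0.10 and 0.22, of beta genes between -0.025 and 0.093, of PSMB10 between 0.18 and 0.42, of ATPases between 0.028 and 0.14, of base scaffold genes between -0.023 and 0.028, of assembly chaperones between -0.048 and 0.10, and of lid genes between -0.016 and 0.14. With library size only, the base scaffold median was -0.042, and the median of all genes moved to -0.035. The alpha minus beta difference of class means, 0.13, stayed between 0.092 (without V1) and 0.16 (without V0) over all alternatives. The cause of these moves was not tested.

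With the table's replicate number as a block, 5 members (PSMA2, PSMA3, PSMA4, PSMA6 and PSMC2) and 5 other pathway genes were called higher. The share of all genes called with this block is not given here. The labels tie nothing to these numbers. The deviations of C0 and V0 from their group means correlated at 0.074 across 10969 genes. Whether libraries of the same number share a batch was not tested.

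With 2 samples a group and 8370550 fragments in the shallowest library, differences this small are hard to tell from the spread between libraries. The groups overlapped for 19 of 35 tested members. They had no overlap in the higher direction for 15 and in the lower for 1, beside 22% and 21.3% of all genes tested. PSMB8, PSMB9, PSMB11 and PSMA8 are at or near the floor of detection.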

Other observations

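Of 15 interferon-linked genes of antigen processing, which include PSMB8, PSMB9 and PSMB10, 9 had enough fragments to test. Of these, 0 were called in either direction, where 2.57% of all genes tested were. Of the 9, 7 were positive, against 50.6% of all genes, and the median of the 9 was 0.14 on the log2 scale. PSMB10, B2M, PSME1 and PSME2 lie in the shortest length class, where the median of all genes was 0.090. The other tested genes of the list are longer. IRF1, a transcription factor induced by interferon, had 17.6 and 17.2 CPM in clofarabine libraries and 12.7 and 13.02 CPM in DMSO libraries, with no overlap (log2 fold change 0.43, SE 0.144, edgeR adjusted p = 0.135). B2M, the light chain of MHC class I, had 428 and 464 CPM in clofarabine libraries and 417 and 391 CPM in DMSO libraries (log2 fold change 0.14, adjusted p = 0.339). Of the MHC class I heavy chains, HLA-B was at 5 and 6 fragments in clofarabine libraries and 1 and 2 in DMSO libraries, and HLA-C at 7 and 5 fragments in clofarabine libraries and 2 and 0 in DMSO libraries. NLRC5, the transactivator of MHC class I genes, had 1 and 0 fragments in clofarabine libraries and 2 and 5 in DMSO libraries. The subunits of the TAP transporter had log2 fold changes of 0.29 for TAP1 and -0.055 for TAP2, and neither was called.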
